A study of Mus musculus with 8 samples.

Results

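The comparison set nephron progenitors labelled Smo KO against nephron progenitors labelled Smo Het, from mouse kidneys at E18.5. It used 4 of the 8 RNA-seq libraries of the series, 2 for each label, chosen by the names of their columns, and 13459 of the 24539 genes in the table, those that passed a filter on low counts. The KO-labelled cells carried Smo c/c, 2 conditional alleles that Cre recombinase can delete, and the Het-labelled cells carried Smo c/+, with 1 conditional and 1 wild-type allele. The other 4 libraries served as reference, 2 labelled WT with Smo +/+ and 2 labelled SmoM2 with Smo +/+ and a Rosa26 SmoM2/+ allele, an active form of Smo that Cre turns on. All 4 groups carried the Six2GFPcre transgene, a fusion of GFP and Cre expressed in nephron progenitors, so deletion follows Six2 expression and is kept in the descendants of those cells. Cells were isolated by FACS. The labels do not say whether the libraries came from separate embryos, so each p-value measures the spread between these libraries, which may be partly technical.

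Smo is a membrane protein that is held inactive by the receptor Ptch1 until a Hedgehog ligand binds Ptch1. Active Smo lets the Gli transcription factors switch on targets such as Gli1, Ptch1 and Hhip. In the developing kidney, nephron progenitors express Six2 and Cited1 and either renew or respond to Wnt signals by forming the renal vesicle, an epithelial structure in which Wnt4, Lhx1, Pax8, Fgf8 and Jag1 are turned on. According to its title and design, the series asked what Hedgehog signalling does in these progenitors by varying the dose of Smo, and the comparison described here is the loss of the allele that is left in the Het genotype.

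Smo itself, a gene on chromosome 6, was at 13.1 and 11.1 CPM (counts scaled to libraries of equal size) in the KO-labelled libraries, and the Het-labelled ones had 14.4 and 23.9. The WT-labelled libraries had 363 and 375 CPM and the SmoM2-labelled libraries 605 and 629. The Het-labelled libraries therefore lay beside the KO-labelled ones and not between them and the WT-labelled ones, which goes against the label of a cell with 1 intact allele. The change from Het to KO was -0.65 on the log2 scale (SE 0.23), with an edgeR adjusted p of 0.0907. Libraries are called by their labels throughout, because the deposited counts do not show that the Het-labelled cells had more intact Smo.

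The KO-labelled libraries were the shallowest of the series, with 4422305 and 4442697 listed counts, against 7577590 and 5929770 in the Het-labelled ones and between 9037109 and 10305398 in the other 4. Both KO-labelled libraries had counts of Y-linked genes (620 and 568) and almost no Xist, the RNA of the inactive X chromosome (2 and 1 counts). In the Het-labelled pair, Y-linked genes had 0 counts and Xist had 10260 and 9663, so the sex of the embryos cannot be told apart from the label in the 4 libraries. In the WT- and SmoM2-labelled groups, replicate 1 had Y-linked counts and replicate 2 did not. Six2 was at 1830 and 1480 CPM in the KO-labelled and at 2100 and 1770 CPM in the Het-labelled libraries, and the endothelial markers Pecam1, Cdh5 and Kdr had between 0 and 9 counts in each of the 4 libraries, while the endothelial marker Plvap was at 31.9 and 17.6 CPM against 32.1 and 26.7. Col1a1, a stromal collagen, was at 380 CPM in KO-labelled replicate 1 and at 32.9 in replicate 2, beside 70.4 and 181 CPM in the Het-labelled libraries.

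Genes of the early nephron were the most prominent risers in the KO-labelled libraries. Lhx1 had 62.2 and 122 CPM against 4.68 and 9.34, and Ccnd1, Pou3f3, Clec18a, Papss2 and the Notch ligands Jag1 and Dll1 rose as well, while Six2 and Cited1, the genes that define the progenitors, were not called. Genes that fell included the phosphodiesterase Pde3a, the Wnt repressor Tcf7l1 and the mesenchymal factor Foxc1. Apart from these, short genes such as those of ribosomal proteins tended to be higher and long genes such as Kmt2d lower. The changes that follow gene length are therefore given first, and those that do not follow it after them.

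Gene length moved with the label. For each library, the log2 CPM of a gene minus its mean over the 8 libraries was set against the log2 of its deposited length, the number of bases the table gives for each gene model. The slope per doubling of length was -0.20 and -0.10 in the KO-labelled libraries and 0.01 and 0.00 in the Het-labelled libraries, and it lay between 0.06 and 0.11 in the WT- and SmoM2-labelled libraries. The KO- and Het-labelled slopes did not overlap, and their difference of -0.16 compares with a pooled replicate SD of 0.0485. With 2 libraries against 2, an exact permutation test cannot give a two-sided p below 0.333, and none is given. The 2 KO-labelled libraries also differed from each other, replicate 1 having the steeper slope of the 2. Genes shorter than 1000 bases took 9.36% and 8.26% of the counts in the KO-labelled libraries and 6.15% and 6.35% in the Het-labelled libraries. Genes longer than 5000 bases took 22.2% and 23.8% against 26.9% and 27.2%.

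**Figure D1:**
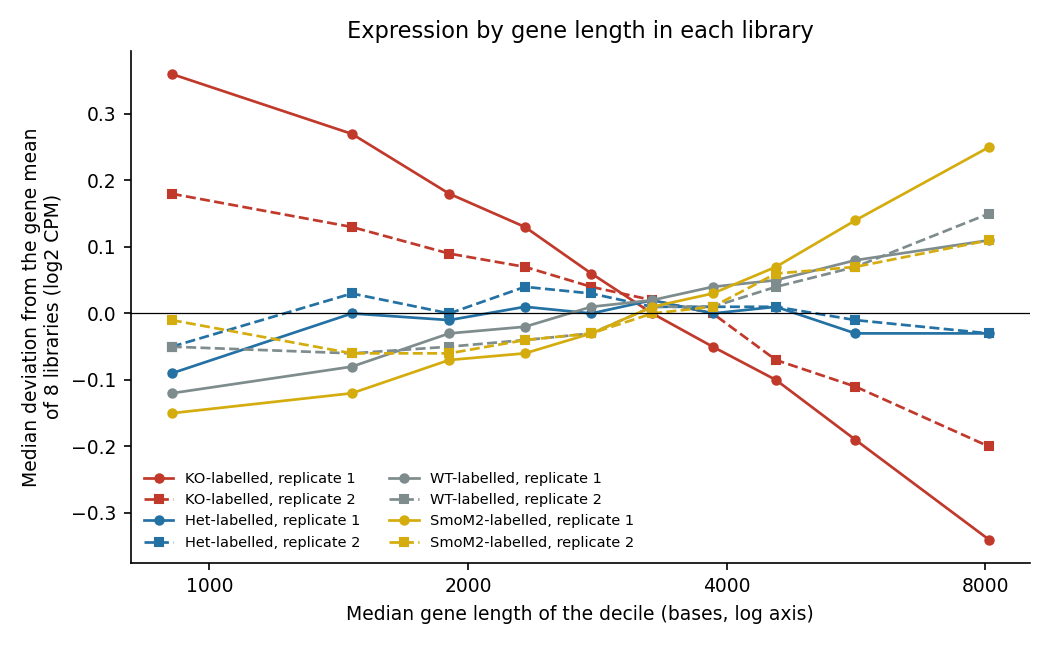
Median deviation of log2 CPM from the mean of the 8 libraries (vertical axis) in each of 10 gene length classes of equal size, placed at the median length of the class (horizontal log axis, bases), with 1 line per library. The lines of the KO-labelled libraries fall with length from 0.36 and 0.18 to -0.34 and -0.20, those of the Het-labelled libraries stay between -0.09 and 0.04, and those of the other 4 libraries rise.

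The change from Het to KO followed the same axis. Across the tenth of tested genes with the shortest models, with a median length of 904 bases, the median change was 0.35 on the log2 scale. It passed through 0 in the sixth length class and reached -0.24 in the longest, with a median length of 8081 bases. Across the 13459 genes, which are not independent replicates, the change and the log2 length had a Pearson r of -0.25 and a Spearman rho of -0.34. Once the trend of each library over length had been removed, the median was 0.04 in the shortest and -0.01 in the longest class.

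Without that removal, 1269 of the 13459 genes, 9.43%, differed between the labels at an edgeR adjusted p under 0.05. Of these, 583 (4.33% of the tested genes) were higher and 686 (5.10%) were lower with the KO label, and 254 changed at least 2-fold. In the shortest class 193 genes were higher and 4 lower, and in the longest class 19 were higher and 208 lower. With the trend removed, 643 genes (4.78%) were called, 216 higher and 427 lower, with 20 higher and 23 lower in the shortest and 34 higher and 57 lower in the longest class. Both fits called 577 genes (4.29% of the tested genes) in the same direction, 199 higher and 378 lower, which is 45.5% of the 1269. These are described below as independent of length, which refers to the call and not to the whole size, since 142 of them retained 50% to 90% of their change and 435 at least 90%. The 692 that were called only before removal are described as having lost the call. Libraries of the 2 labels did not overlap in 56.9% of all tested genes, so a gap between them was common. Scaling by the library totals that the deposited RPKM values imply moved the median of all genes from 0.02 to 0.09 and called 937 genes higher and 511 lower, so that 64.7% of the calls were higher in place of 45.9%. Changes given here are relative to the scaling by trimmed means, under which the median was 0.02.

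**Figure D2:**
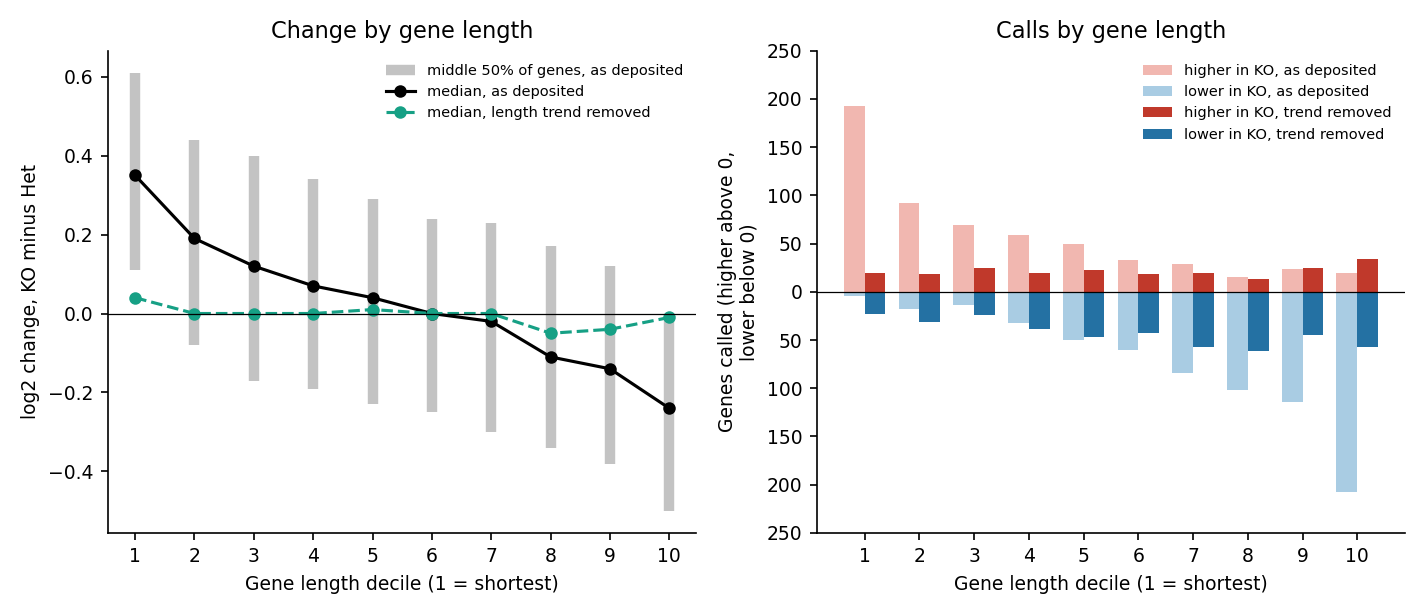
Left, median log2 change from Het- to KO-labelled libraries in 10 gene length classes from shortest (1) to longest (10), before (black) and after (green) removal of the length trend, with grey bars for the middle 50% of the genes before removal. Right, number of genes called in each class, higher above and lower below the zero line, before (pale) and after (dark) removal: 193 higher and 208 lower calls at the 2 ends shrink to 20 and 57.

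The 692 genes that lost the call were of 2 kinds by length. The 384 that had been higher had a median length of 1316 bases, and the 308 that had been lower had a median length of 6526.5, against 3016 over all tested genes. Losing the call did not always mean losing the change. Among them 115 genes retained less than 50% of their change, 422 retained 50% to 90%, and 155 retained at least 90%, so that the last group lost the call with a change of nearly the same size. After removal 595 of the 692 still had an unadjusted p under 0.05. The median share of the change that remained was 72.6% among these genes and 97.3% among the 577. A further 66 genes were called only after removal, 17 higher and 49 lower.

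The calls rested on individual libraries. Without Het-labelled replicate 1, 36 genes were called before removal and 5 in both fits, and 92 of the 116 genes given by the naming rule lost their call. Without each of the other 3 libraries in turn, between 61 genes (without KO-labelled replicate 2) and 208 (without KO-labelled replicate 1) were called in both fits. Only 5 genes were called in both fits without each of the 4 libraries, namely Cldn5, Kif26a, Pde3a, Oraov1 and Rbm3, and the last 2 were named after their values were seen. A removal of the trend over expression level together with length called 417 genes higher and 367 lower, against 216 and 427 for length alone. A term for the presence of Y-linked counts, which the WT- and SmoM2-labelled libraries allow to be fitted, left 435 genes called in both fits, of which 225 were among the 577. In those 2 groups the term cannot be told apart from the replicate number, and their differences between replicates correlated (0.39). Any other difference between those replicates therefore enters the term as well. GC content of the transcripts also differed among the calls, with a median of 56.6% for the 378 lower genes, 50.2% for the 199 higher genes and 51.1% for all tested genes. With the trends over length and GC both removed, 364 genes were called and 309 of the 577 remained.

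Among genes independent of length with an average log2 CPM of at least 1, the largest rises described here were in Cldn5 (31.8-fold), Emx2 (23.8-fold), Kif26a (15.6-fold) and Lhx1 (13.4-fold). Cldn5 (chr16:18776847-18778262, GRCm38), which encodes a claudin of tight junctions, had 22.1 and 17.0 CPM in the KO-labelled libraries and 0.535 and 0.679 in the Het-labelled ones. The WT- and SmoM2-labelled libraries were between 0.716 and 2.07 CPM, so both KO-labelled libraries stood above all other 6. The change was 4.99 (SE 0.44, edgeR adjusted p = 0.00171), and 4.79 with the length trend removed. Claudin 5 is best known from endothelium and is also made by podocytes. Beside its rise, the endothelial list without Cldn5 summed to 40.3 and 24.6 CPM under the KO label and 36.8 and 35.7 CPM under the Het label, and the podocyte gene Nphs1 had between 0 and 2 counts in each of the 4 libraries. The podocyte list without Cldn5 summed to 210 and 189 CPM against 179 and 181, and to between 85.9 and 106 in the other 4 libraries.

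Kif26a (chr12:112143974-112181747), a kinesin family gene, was at 27.0 and 35.3 CPM against 1.20 and 2.89. Its model is long, at 6918 bases, so its rise of 3.97 (SE 0.40, edgeR adjusted p = 0.00219) ran against the trend and grew to 4.12 once the trend was removed. It kept both calls without each of the 4 libraries. Emx2 (chr19:59458690-59465357), a homeobox factor needed for kidney development, was at 14.4 and 15.5 CPM against 0.134 and 1.19, and at most at 0.925 in the other 4 libraries. Its change was 4.57 (SE 0.58, edgeR adjusted p = 0.0046). It passed the low-count filter only through the KO-labelled libraries, so it had to differ, and its values are a description. Without Het-labelled replicate 1 its change was 3.63, with an edgeR adjusted p of 0.0458 before and 0.067 after removal.

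Lhx1 (chr11:84517975-84525534), a LIM homeobox factor of the renal vesicle, was at 62.2 and 122 CPM in the KO-labelled libraries against 4.68 and 9.34 in the Het-labelled ones. The WT- and SmoM2-labelled libraries had between 4.5 and 10.9 CPM, and the Het-labelled libraries fell in that range. The rise was 3.75 (SE 0.44, edgeR adjusted p = 0.00427) and 3.72 with the trend removed, where leaving out Het-labelled replicate 1 raised the adjusted p to 0.0773. Lhx1os, a non-coding transcript read from the opposite strand (chr11:84525660-84535831), rose with it, from 0.802 and 1.36 to 9.52 and 14.2 CPM (log2 change 3.47, SE 0.67, edgeR adjusted p = 0.013). Between the 2 start sites lie 125 bases, which are shown because 2 genes that rose start from this stretch in opposite directions. In the direction of Lhx1, chr11:84525535-84525659 on the minus strand of GRCm38.p6 (RefSeq), with CG dinucleotides in capitals, this stretch reads

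between Lhx1os and Lhx1: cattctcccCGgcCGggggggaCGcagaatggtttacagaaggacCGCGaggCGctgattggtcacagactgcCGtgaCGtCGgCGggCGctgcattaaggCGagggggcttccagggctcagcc

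It holds 12 CG dinucleotides, which read the same on both strands. The RefSeq window of 250 bases before to 50 after the Lhx1 start holds 31, a number reached by 10.6% of the 32851 windows of that length, whose median is 7. The count describes the sequence and was not measured in these libraries.

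Other neighbouring genes rose together as well, which was seen only after their values were known. Emx2os, which runs away from Emx2 with 54 bases between the gene models, was at 5.09 and 5.22 CPM in the KO-labelled libraries and at 0.134 and 0.510 in the Het-labelled ones, at or below the floor of 3 counts, and was thus at least 10.1-fold higher. Oraov1 (chr7:144915100-144930748) overlaps Ccnd1 (chr7:144929931-144939831) by 818 bases. Oraov1 rose from 29.4 and 39.9 to 146 and 123 CPM (log2 change 1.96, SE 0.19, edgeR adjusted p = 0.00216). The strand setting of the counting is not stated, so reads of genes that overlap on opposite strands cannot be told apart, and Oraov1 is uncertain in that respect.

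The early nephron genes, a list of 20 genes of the renal vesicle and its forerunner, were a group whose shift did not follow length. Of the 16 that passed the low-count filter, 9 rose and 1 fell with the KO label, 62.5% beside 9.43% of all tested genes. With the trend removed, 7 and 1 remained. The median change of the 16 was 1.43 in both fits, against 0.02 and 0.00 over all tested genes. Of these, 2 passed the filter only through the KO-labelled libraries, Pou3f3 among them, and Cdh1, Hnf4a, Irx1 and Irx2 did not pass it. In 12 of the 16 (75% beside 21.8% of all tested genes), both KO-labelled libraries lay beyond all other 6 libraries. In 1 more (6.25% beside 2.67%) the 2 labels lay at opposite ends. Summed over the list, the KO-labelled libraries had 1720 and 2070 CPM, the Het-labelled 694 and 1020, the WT-labelled 628 and 895 and the SmoM2-labelled 658 and 899.

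**Figure D3:**
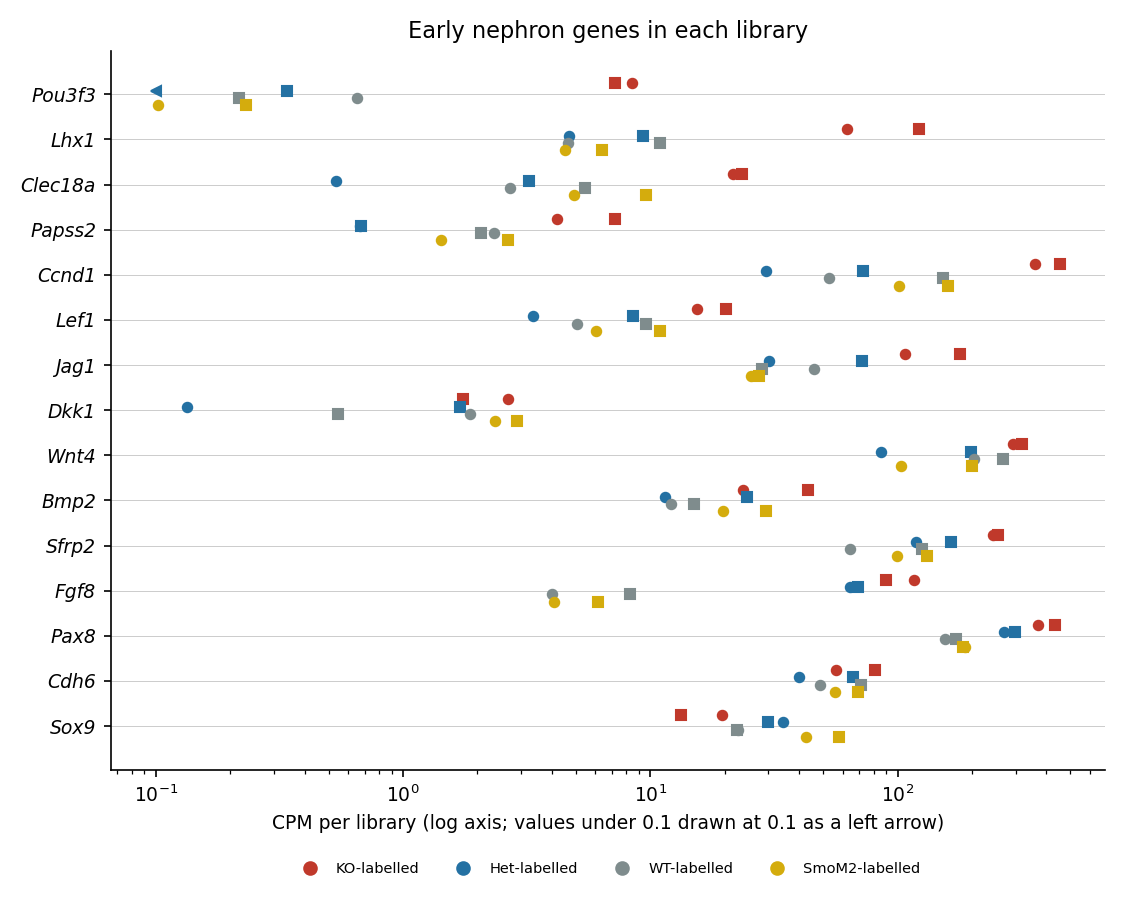
Level of tested early nephron genes in each of the 8 libraries, in CPM on a log axis, ordered by their change (circles replicate 1, squares replicate 2, left arrow for a value under the axis). The KO-labelled libraries (red) stand to the right of all others in the upper rows, by at least 15.3-fold over the Het-labelled libraries for Pou3f3, and to the left for Sox9.

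Transcription factors led the list. Pou3f3, a POU factor of the developing nephron, was at 8.41 and 7.18 CPM against 0 and 0.340, at least 15.3-fold higher than the floor of 3 counts. It lost the call with the Y-linked term (edgeR adjusted p = 0.08) and without Het-labelled replicate 1 (log2 change 4.45). Lef1, a partner of beta-catenin, was at 15.5 and 20.2 CPM against 3.34 and 8.49. Its change was 1.63 before and 1.64 after removal while its edgeR adjusted p went from 0.0451 to 0.063, so it lost the call with no loss of size. Pax8 was at 0.50 (SE 0.12, edgeR adjusted p = 0.0304) before and 0.46 (adjusted p = 0.061) after removal.

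Ccnd1, the D-type cyclin of early induced cells, had 361 and 452 CPM in the KO-labelled libraries and 29.4 and 72.5 in the Het-labelled ones, with 52.7 and 153 in the WT-labelled and 101 and 160 in the SmoM2-labelled ones. The Het-labelled range lay partly below that of the reference libraries, and the KO-labelled range lay well above all of them. The change was 3.01 (SE 0.48, edgeR adjusted p = 0.00718). Clec18a, a lectin gene, was at 21.5 and 23.5 CPM against 0.535 and 3.23, and Papss2, an enzyme of sulfate activation, at 4.21 and 7.18 against 0.668 and 0.679. Both were called in both fits, with changes of 3.66 and 3.05.

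Sox9 went the other way, with 19.5 and 13.3 CPM in the KO-labelled and 34.5 and 29.9 in the Het-labelled libraries (log2 change -0.98, SE 0.22, edgeR adjusted p = 0.0232). Wnt4, the signal that drives the change to epithelium, was at 292 and 320 CPM against 85.7 and 198, and its change of 1.11 (SE 0.35) did not pass the test, with an edgeR adjusted p of 0.0673. Fgf8 (0.63), Sfrp2 (0.82), Bmp2 (0.92), Dkk1 (1.36) and Cdh6 (0.38) were not called either. The count of the list depended on the libraries. It was 9 higher genes with the Y-linked term and 8 with length and GC removed, 8 and 5 without KO-labelled replicates 1 and 2, and 9 without Het-labelled replicate 2, where the median change was 2.64. Without Het-labelled replicate 1, which summed to 694 CPM, 1 gene was higher before removal and 0 after it, with a median change of 0.83. In bulk libraries, more cells with these RNAs and more of them per cell cannot be told apart.

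The Notch ligands Jag1 and Dll1 rose in both fits. Jag1, a ligand of the renal vesicle, was at 107 and 179 CPM in the KO-labelled and at 30.2 and 71.8 in the Het-labelled libraries (log2 change 1.5, SE 0.35, edgeR adjusted p = 0.0262). Dll1, another ligand, was at 27.0 and 29.2 CPM against 9.09 and 16 (1.18, SE 0.27, edgeR adjusted p = 0.0232). The receptor Notch3 was lower (-0.73) and lost the call after removal (-0.54). The fringe enzyme Rfng was lower in both fits (-0.68 and -0.77). For Notch3 and Rfng the Het-labelled libraries lay above all other 6. Of the targets, Hey1 (0.78) and Nrarp (0.72) were not called, with edgeR adjusted p-values of 0.0603 and 0.0907, and Hes1 was at -0.17. Of the 19 tested pathway genes, 2 rose and 2 fell, 21.1% called beside 9.43% of all tested genes, and the median was 0.07. Jag1 lost its call without KO-labelled replicate 2 (1.07), without Het-labelled replicate 1 (0.99) and with the Y-linked term (1.18). Dll1 lost it without KO-labelled replicate 1 (1.23, edgeR adjusted p = 0.0771), KO-labelled replicate 2 (1.11, adjusted p = 0.0894) or Het-labelled replicate 1 (0.81, adjusted p = 0.178), and with the Y-linked term (1.15, adjusted p = 0.0986).

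Other genes with large rises in both fits were Sv2b, a synaptic vesicle protein gene that was at least 8.38-fold higher, Osr2, a zinc finger factor (9.74 and 10.2 CPM against 0.535 and 2.04), and Hs3st3b1, an enzyme that modifies heparan sulfate (7.09 and 9.14 against 0.535 and 1.70). Their log2 changes were 3.45, 3.01 and 2.91. Sv2b was at 2.88 and 5.66 CPM against 0.267 and 0.51, with 1.21 to 3.24 CPM in the other 4 libraries. There the Het-labelled libraries lay below all other 6, and Sv2b did not keep both calls without any 1 of the 4 libraries. Osr2 lost its call without KO-labelled replicate 1 (3.04), KO-labelled replicate 2 (2.97) or Het-labelled replicate 1 (2.28). Among signalling and matrix genes, Bmp4 rose from 25.4 and 36.2 to 88.8 and 79.0 CPM (1.45, SE 0.24, edgeR adjusted p = 0.00744), and Bambi, a decoy receptor of the same family, rose by 0.92. Bmp4 lost the call with the Y-linked term (0.91, edgeR adjusted p = 0.0505) and without Het-labelled replicate 1 (1.21, adjusted p = 0.0927). Without KO-labelled replicates 1 and 2 it lost the call after removal of the trend, with edgeR adjusted p-values of 0.0526 and 0.0605. The laminin chain Lama4 rose in both fits (1.36). Peg10, an imprinted gene, rose by 1.62, from 2.94 and 9.51 to 17.5 and 20 CPM.

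Among the genes that fell independent of length, Pde3a kept both calls without each of the 4 libraries. Pde3a (chr6:141249269-141506862), a phosphodiesterase that breaks down cyclic AMP, was at 9.30 and 8.49 CPM in the KO-labelled and at 37.3 and 55.7 in the Het-labelled libraries. The WT-labelled libraries had 6.15 and 7.52 CPM, so here the Het-labelled libraries were the ones that stood apart, above all other 6. The change was -2.38 (SE 0.26, edgeR adjusted p = 0.00401) and -2.34 with the trend removed. Sypl2 (39.6 and 31.8 CPM against 125 and 89.9, WT-labelled 22.0 and 21.5) and Casz1, a zinc finger factor (5.31 and 9.14 against 34.1 and 19.9, WT-labelled 4.85 and 4.57), had the same form. Their changes were -1.59 and -1.90.

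Other fallers were lowest in the KO-labelled libraries. Shisa3, of a family that holds back Wnt and FGF receptors, was at 289 and 283 CPM in the KO-labelled libraries, at 1190 and 759 in the Het-labelled and between 310 and 1040 in the other 4 (log2 change -1.77, SE 0.30, edgeR adjusted p = 0.00867). Gm16070, a predicted gene, was at 0.664 and 0.871 CPM against 2.94 and 2.72, and at 7.18 to 18.8 in the other 4. Fat3, an atypical cadherin with a model of 18468 bases, shows both parts in a single gene, since its change went from -1.68 to -1.12 and kept the call. Moxd1 (-1.63), Pcdhb2 (-2.68) and Pcdhb6 (-1.64) were also among the 12 largest falls, as was Cd68, described below. Slc25a42 (-1.64) was too, but there the Het-labelled libraries stood apart, with 6.42 and 4.79 CPM against 18 and 17 and 8.95 and 5.23 in the WT-labelled libraries. Reads of the clustered protocadherins can be shared between near-identical copies, so their values are uncertain.

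Counted over all genes, the group that stood apart was not always the KO-labelled one. Of the 199 genes that rose independent of length, the KO-labelled libraries lay beyond all other 6 in 36.7%, the Het-labelled ones did in 35.2%, and the 2 labels lay at opposite ends in 26.6%. Of the 378 that fell, the shares were 28.0%, 50.3% and 20.9%. Over all tested genes they were 21.8%, 23.2% and 2.67%.

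Cytosolic ribosomal protein genes had the most calls of any list before removal, and most lost the call after it. These genes encode the proteins of the cytosolic ribosome and have short models, with a median of 734 bases. Of 79 tested, 37 were called higher under the KO label and 0 lower, 46.8% higher beside 4.33% of all tested genes. The median change was 0.49, and 9 remained higher in both fits with a median of 0.17. Rps29 was at 833 and 723 CPM against 388 and 402, and its change of 0.98 (SE 0.13, edgeR adjusted p = 0.00583) fell to 0.50 and kept the call. Rpl35a (0.96 to 0.56) lost it. Summed over the list, the KO-labelled libraries had 69900 and 60500 CPM and the Het-labelled ones 46200 and 47800, while the WT- and SmoM2-labelled libraries had between 59000 and 72200. The Het-labelled libraries were thus the ones that stood apart, in 64 of the 79 genes taken singly (81% beside 23.2% of all tested genes). Several of these genes have near-identical pseudogenes, so single values are uncertain. Without Het-labelled replicate 1, 0 of the 79 were called, although the median was 0.50.

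**Figure D4:**
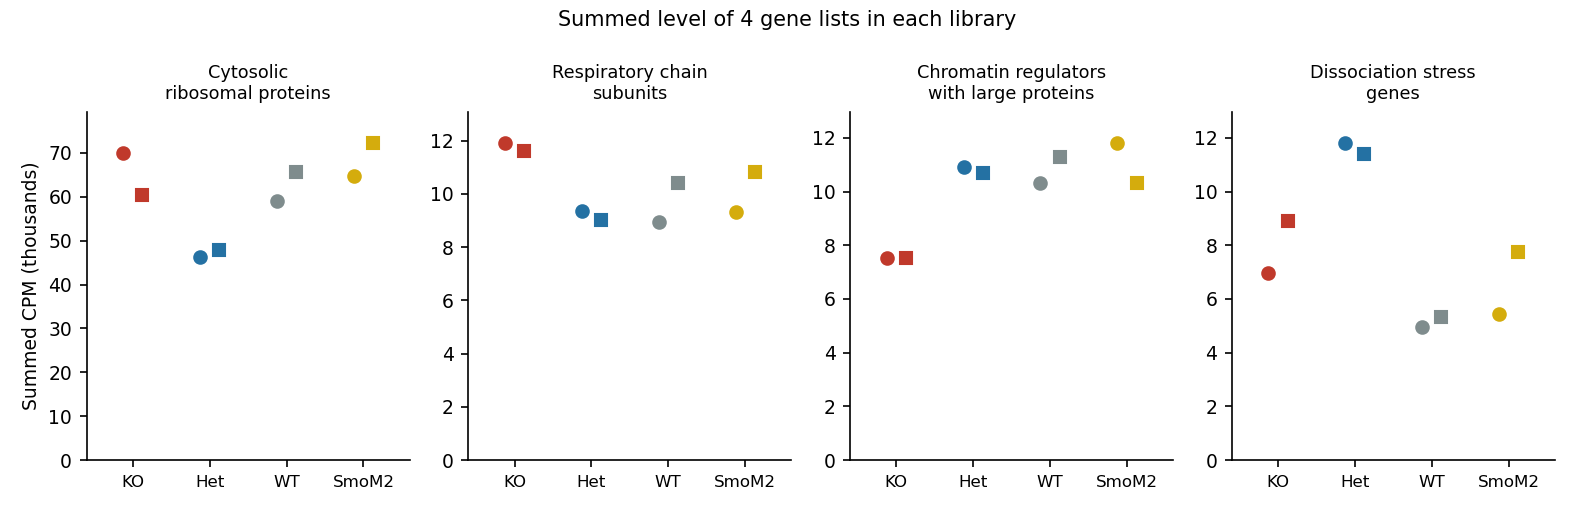
Summed CPM of 4 gene lists in each library (circles replicate 1, squares replicate 2, each axis from 0). For ribosomal protein genes and dissociation stress genes the Het-labelled libraries (blue) stand apart from the other 6, and for the large chromatin regulators the KO-labelled libraries (red) do, at 7510 and 7520 CPM.

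Subunits of the mitochondrial respiratory chain, with a median length of 756 bases, behaved alike in count and differed in which libraries stood out. Of 76 tested, 25 were higher and 0 lower before removal, 32.9% higher beside 4.33% of all tested genes. In both fits 2 were higher, and the median went from 0.43 to 0.12. The 2 that remained were Uqcrq, a subunit of complex III (200 and 155 CPM against 77.1 and 81.5, log2 change 1.16 to 0.99), and Cox7a2, a subunit of complex IV (109 and 109 against 55.5 and 52.5, 1.01 to 0.68). In 37 of the 76 (48.7% beside 21.8% of all tested genes) the KO-labelled libraries stood apart from the other 6. The Het-labelled ones did in 17 (22.4%), near the 23.2% of all tested genes. The shortest genes that lost the call belonged largely to these 2 classes. They were Usmg5 and 2010107E04Rik, which RefSeq names as subunits of the ATP synthase, Ndufa3, Rps27rt and Mir675. Usmg5 had 81.3 and 80.8 CPM against 52.1 and 54.5, and its change went from 0.60 to 0.11. Mir675 lies within H19, which was itself higher before removal (0.78, edgeR adjusted p = 0.0329) and not after it (0.72, adjusted p = 0.0611), so its reads cannot be assigned with certainty.

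Chromatin regulators with large proteins, with a median length of 9029 bases, mirrored them. Of 33 tested, 16 were lower and 0 higher, 48.5% lower beside 5.10% of all tested genes, and 3 were lower in both fits. The median went from -0.48 to -0.16. Kmt2d, a histone H3 lysine 4 methyltransferase with a model of 19827 bases, was at 420 and 357 CPM in the KO-labelled and at 815 and 952 in the Het-labelled libraries. Its change went from -1.19 (SE 0.21, edgeR adjusted p = 0.00905) to -0.59 (SE 0.16, adjusted p = 0.06). The WT- and SmoM2-labelled libraries had between 376 and 605 CPM, so for Kmt2d the Het-labelled libraries stood apart. Setd1b, a relative of Kmt2d (-1.06 to -0.82), kept the call. The summed level was 7510 and 7520 CPM in the KO-labelled and between 10300 and 11800 CPM in the other 6 libraries. The KO-labelled libraries stood apart in 24 of the 33 genes (72.7% beside 21.8% of all tested genes). Without Het-labelled replicate 1, 1 of the 33 was called before removal. The longest genes that lost the call showed the same in the extreme. Dst, a cytoskeletal linker with a model of 30001 bases, was at 397 and 336 CPM against 607 and 659, and its change went from -0.79 to 0.03. Aak1, a kinase of endocytosis, went from -0.48 to 0.10, and Pclo and Hmcn1 kept -0.52 and -0.40. The laminin gene Lama5, with a shorter model of 11388 bases, also lost the call and went from -0.47 to -0.14.

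**Figure D5:**
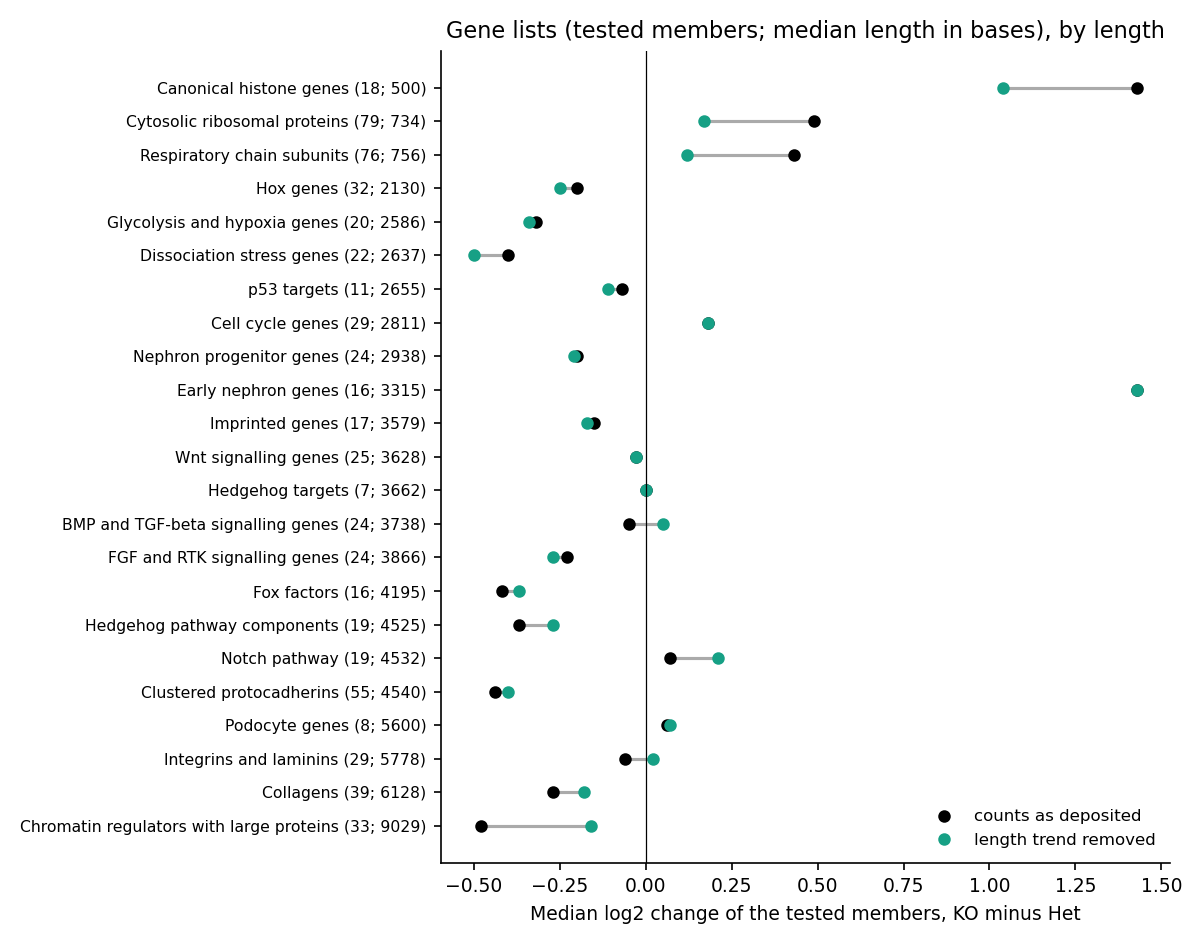
Median log2 change of the tested members of each gene list before (black) and after (green) removal of the length trend, from the list with the shortest genes (top) to that with the longest (bottom), with the number of tested members and the median length in brackets. Lists at both ends of the length range move towards 0, ribosomal proteins from 0.49 to 0.17 and large chromatin regulators from -0.48 to -0.16, while the early nephron genes stay at 1.43.

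Genes called only after removal were those whose change had run against the trend. Among the risers were Pcdh19, a cell adhesion protein with a model of 10294 bases (24.8 and 47.5 CPM against 15.4 and 20.4, log2 change 1.02 to 1.3), the axon guidance protein Sema5a (0.95 to 1.25), Lsamp (0.85 to 1.15) and Dclk1 (0.65 to 1.04). The fallers were short. Hoxa6, with a model of 699 bases, had 20.6 and 22.2 CPM against 31.1 and 31.1, and its change went from -0.54 to -0.89. Ifi30, a lysosomal thiol reductase, went from -0.59 to -0.88, Sap25 from -0.79 to -1.07 and Gm53 from -0.71 to -1.09.

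Of 7 tested Hedgehog targets, 0 were higher and 1 was lower, 14.3% lower beside 5.10% of all tested genes. The median change of 0.00 in both fits was that of Foxf2, which had no count in the 4 libraries. It was -0.40 with the Y-linked term, 0.32 with the 4 libraries alone, -0.30 without KO-labelled replicate 1 and 0.31 without KO-labelled replicate 2. Ptch1 was the one that was called, with 51.4 and 54.6 CPM in the KO-labelled and 75.5 and 76.9 in the Het-labelled libraries, against 155 and 168 in the WT-labelled and 377 and 355 in the SmoM2-labelled ones. Its change of -0.52 (SE 0.12, edgeR adjusted p = 0.0257) became -0.34 (SE 0.12, adjusted p = 0.108) with the length trend removed, its model being 7675 bases long. Ptch1 lost its call before removal without any 1 of the 4 libraries, with changes between -0.48 (without KO-labelled replicate 1) and -0.58 (without KO-labelled replicate 2), and with the Y-linked term (-0.51). Gli1 was at 5.98 and 2.83 CPM against 2.67 and 4.42, where the ranges overlap, and at 28.3 to 75.9 in the other 4 libraries. Hhip was at 1.11 and 2.18 CPM against 0.401 and 0.340 and did not pass the test (edgeR adjusted p = 0.0744). The log2 change of Hhip was 2.55 with the Y-linked term, where it was called (edgeR adjusted p = 0.0373). Summed over the list, the KO-labelled libraries had 69.5 and 66.4 CPM, the Het-labelled 84.5 and 91.2, the WT-labelled 221 and 221 and the SmoM2-labelled 591 and 571.

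Of 19 tested pathway components, 3 were lower and 0 higher, 15.8% lower beside 5.10% of all tested genes. Gas1, a co-receptor that binds Hedgehog ligands, was at 1760 and 1770 CPM against 2590 and 2250 and was lower in both fits (-0.46 and -0.47). The WT- and SmoM2-labelled libraries had between 990 and 1170 CPM, so the KO-labelled ones lay between these and the Het-labelled ones. Disp1, which releases the ligands (-0.59 to -0.51), and the kinase Gsk3b (-0.62 to -0.41) lost the call. The Het-labelled libraries stood apart for Disp1 and the KO-labelled ones for Gsk3b. The repressor Sufu (-0.37), Gli2 (-0.41) and Gli3 (-0.46) did not pass the test, and Shh had no count in the 4 libraries.

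Of 24 tested nephron progenitor genes, 2 were higher and 3 lower, 20.8% of them beside 9.43% of all tested genes. After removal 1 and 1 remained, and the median was -0.20 before and -0.21 after it. The riser that remained was Emx2, which passed the low-count filter only through the KO-labelled libraries, so it had to differ. Six2 (-0.23, SE 0.15, edgeR adjusted p = 0.342) and Cited1 (-0.42, SE 0.21, edgeR adjusted p = 0.228) were not called, and Cited1 was at 385 and 271 CPM against 506 and 372, with overlapping ranges. Phf19, a Polycomb-associated protein, was lower in both fits (77.9 and 68.8 CPM against 115 and 123, log2 change -0.70). The WT- and SmoM2-labelled libraries had between 34.8 and 47.2 CPM, so the Het-labelled libraries were the ones that stood apart. Gdnf, the ligand that draws out the ureteric bud, fell by 0.75 on the log2 scale and lost the call after removal (-0.68). The adhesion molecule Ncam1 (-0.47 to -0.20) lost it too. For Gdnf the KO-labelled libraries stood apart, and for Ncam1 the Het-labelled ones did. Tmem100 was higher (0.95) and lost the call (0.82).

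Signalling genes that fell are read beside the 5.10% of all tested genes that were lower. In the Wnt list of 25 tested genes, 1 rose (Lef1, before removal) and 4 fell in both fits. These were the repressor Tcf7l1 (230 and 201 CPM against 467 and 358, log2 change -0.94, SE 0.15, edgeR adjusted p = 0.00737), its relative Tcf7l2 (-0.67), and the receptors Fzd1 (-0.78) and Fzd2 (-0.62). The Het-labelled libraries stood apart for Fzd1 and Fzd2, and the 2 labels lay at opposite ends for Tcf7l1 and Tcf7l2. In the FGF and receptor tyrosine kinase list of 24, 5 fell and 0 rose, and 4 remained. Gfra1, the GDNF co-receptor, was at 135 and 134 CPM against 282 and 215 and between 526 and 626 in the other 4 libraries (-0.89, SE 0.15, edgeR adjusted p = 0.0081). Spred3 (-0.81) and the receptor Fgfr1 (1390 and 1390 CPM against 2150 and 2010, log2 change -0.59) fell in both fits. For Fgfr1 the WT- and SmoM2-labelled libraries had between 1220 and 1410 CPM, so there the Het-labelled libraries stood apart. In the BMP and TGF-beta list of 24, 2 rose in both fits and the receptor Tgfbr2 fell before removal (-0.72, then -0.67).

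Of 16 tested Fox factors, 4 were lower and 0 higher, 25% lower beside 5.10% of all tested genes, and none of the 16 had a change above 0. Foxc1, a factor of kidney mesenchyme, was at 275 and 219 CPM in the KO-labelled, 492 and 397 in the Het-labelled, 610 and 659 in the WT-labelled and 792 and 844 in the SmoM2-labelled libraries. Its change was -0.85 (SE 0.15, edgeR adjusted p = 0.0103) and -0.82 after removal. Foxc1 lost its call without KO-labelled replicate 2 (-0.70) and without Het-labelled replicate 1 (-0.69). Foxp4 was lower in both fits (-0.68 and -0.65), and Foxk1 and Foxj2 lost the call. The median of the list was -0.42 before and -0.37 after removal.

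Hox genes included 4 that fell in both fits among 32 tested, with 0 higher, which is 12.5% lower beside 5.10% of all tested genes. Hoxb6 was at 65.3 and 55.3 CPM against 111 and 118 (log2 change -0.93, SE 0.17, edgeR adjusted p = 0.0113), and its short model of 1322 bases made the fall larger after removal (-1.14). Hoxb3 (-0.76), Hoxb5 (-0.73) and Hoxc6 (-0.68) fell as well. The Het-labelled libraries stood apart in 14 of the 32 (43.8% beside 23.2% of all tested genes), above or below all others.

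The remaining lists are given by their counts, beside the 9.43% called over all tested genes. Of 29 tested cell cycle genes, only Ccnd1 was called, and of 11 p53 targets 0 were called by edgeR, with 4 at an unadjusted p under 0.05. Of 20 glycolysis and hypoxia genes 3 fell, and Slc2a1, the glucose transporter, was the one that kept the call (86.6 and 102 CPM against 136 and 176, log2 change -0.73), while Vegfa (-0.53) and P4ha1 (-0.99) lost it. The Het-labelled libraries stood apart for Slc2a1, Vegfa and P4ha1. Of 17 imprinted genes 2 rose and 2 fell, with Peg10 and Zim1 (-1.13) in both fits. Of 55 clustered protocadherins 3 fell (5.45% beside 5.10% of all tested genes), and 2 in both fits. Only 3 of the 55 had a change above 0, and the median was -0.44 before and -0.40 after removal. An unadjusted edgeR p under 0.05 was reached by 32 of the 55, beside 3694 of all 13459 tested genes. Of 39 collagens 3 fell (Col11a1, Col27a1 and Col4a6) and 0 kept the call. Of 29 integrins and laminins 2 rose and 5 fell, and 2 and 1 remained. Of 18 canonical histone genes 2 rose and lost the call and Hist2h2be fell in both fits (-0.92). The riser Hist1h2ag passed the low-count filter only through the KO-labelled libraries, so it had to differ. Hist1h2al, the other, which RefSeq lists as H2af-ps2, had 15 and 11 counts against 0 and 0. The WT- and SmoM2-labelled libraries had between 12 and 65 counts, so the Het-labelled libraries stood apart. The histone median of 1.43 rests on RNAs that mostly lack a poly(A) tail and were selected by it here. Their summed levels were 196 and 136 CPM against 131 and 129. Of 8 podocyte genes only Cldn5 was called.

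Genes that respond to cell dissociation were high in the Het-labelled libraries. The list summed to 6970 and 8920 CPM in the KO-labelled, 11800 and 11400 in the Het-labelled and between 4950 and 7750 in the other 4 libraries. Of 22 tested, 3 were lower in the KO-labelled libraries, 13.6% beside 5.10% of all tested genes. They were lower in both fits, namely Fosb (265 and 372 CPM against 668 and 903, log2 change -1.3), Klf2 (-1.29) and Egr1 (-0.84). The median was -0.40 before and -0.50 after removal. With the Y-linked term, 0 of the 22 were called by edgeR in either fit and the median was -0.08 before and -0.21 after removal. None was called either without KO-labelled replicate 1, without each of the Het-labelled replicates, or with length and GC removed. The part of this shift in the other falls was not tested.

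Of 38 tested markers of other cell types 4 were called, which is 10.5% beside 9.43% of all tested genes. Summed CPM of the 11 immune markers were 118 and 95.6 in the KO-labelled and 158 and 182 in the Het-labelled libraries. Without Cd68 they were 107 and 81.6 against 113 and 141, and between 11.6 and 37.3 in the other 4 libraries. Most of that remainder was a single gene, Cd74, at 86.6 and 80.8 CPM against 109 and 130. C1qa, by contrast, was highest in KO-labelled replicate 1, at 5.98 and 0.218 CPM against 1.07 and 2.55. The median change of the 6 tested was 0.39, with 4 above 0. Cd68, a lysosomal protein of macrophages, was called among them (10.8 and 13.9 CPM against 44.8 and 41.3, log2 change -1.79, SE 0.23, edgeR adjusted p = 0.0046), while Ptprc, the general leukocyte marker, had between 0 and 1 count in each of the 4 libraries. Of 14 tested stromal markers, Acta2 alone was called, with 31.7 and 16.1 CPM against 4.81 and 10.9, and the list summed to 1710 and 1120 CPM against 966 and 1290. Lrp2, the endocytic receptor of the proximal tubule, was lower, with 14.2 and 13.3 CPM against 42.8 and 36.9. None of the 5 tested ureteric bud, 4 erythroid and 2 neural markers was called. Of the 5 genes of X inactivation and escape, Kdm5c was lower before removal (-1.01, then -0.70), and the 4 tested Y-linked genes were not called, since they also differ within the WT- and SmoM2-labelled groups.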

How the data were processed

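RNA from FACS-isolated cells was measured by poly(A) RNA-seq in 8 libraries, 2 per group, with groups and replicate numbers taken from the labels. Per the file headers, the deposited table gives raw read counts per gene, a gene length and the authors' RPKM values. Per the submitters' processing notes, STAR, Subread and featureCounts were used with the build mm10. Their versions and the strand setting are not given in the sources used here. The RPKM values that the authors deposited served only for an alternative scaling and one alternative of the length slope.

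The deposited counts were tested in R 4.3.3 with edgeR 4.0.16. The filter filterByExpr required about 1.20 CPM in 2 libraries. Libraries were scaled by trimmed means of M values, and 1 quasi-likelihood model with a mean per group was fitted to all 8 libraries (4 residual degrees of freedom, coefficient of variation 13.5%). P-values are two-sided and were adjusted by the Benjamini-Hochberg method over all tested genes, with a threshold of 0.05. In a second fit, a natural spline with 5 degrees of freedom over log2 length was fitted for each library to log2 CPM minus the gene mean and entered as an offset. Both fits were tested on simulated data. CPM use the scaled library sizes, log2 CPM used a prior count of 2, and SEs are those the test statistic implies. A group with at most 3 counts in each library was taken as at the floor (0.664 CPM in the KO-labelled and 0.510 in the Het-labelled libraries), which covers counting error only. Coordinates come from RefSeq on GRCm38.p6, the assembly of mm10, where 24430 of 24539 symbols matched, and GC content from transcripts for 24157.

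Named genes were Smo, Six2, Cited1, Wnt4, Ptch1, Gli1, Hhip, the called members of each list (up to 4 per direction), the 12 largest risers and 12 largest fallers called in both fits, the 5 longest and 5 shortest genes that lost the call, and 4 risers and 4 fallers called only after removal, all with an average log2 CPM of at least 1 outside the lists. Uncalled list members, Cdh1, Oraov1, Rbm3, Emx2os and single markers were named outside this rule, after their values were seen. The comparison, the members and the lists were chosen with earlier results of these data known. The alternatives were other scalings, filters, tools and length trends, the replicate block, a Y-linked term and leaving out each library. List counts under them, the share of a change that remained and which libraries stood apart were added after seeing the data. Some genes that the rule gives are not reported here.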

Additional observations from a re-analysis of the deposited data

How the results depend on the processing

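Counts are given in the order before removal of the length trend, after removal, and in both fits, with 1269, 643 and 577 genes as reported. With every gene that had a count they were 2217, 1716 and 1561. Removal of length and GC trends together gave 364, 364 and 328, length alone replaced 1269 by 643, 20 length bins by 623, and length with expression by 784. Leaving out each of the 8 libraries gave 36 to 1472 before removal, 6 to 899 after it and 5 to 782 in both fits, lowest without Het-labelled replicate 1. DESeq2 1.42.0 called 1446 genes before removal, 1131 of them shared. The Y-linked term gave 1117, 477 and 435 with 690, 244 and 225 shared, so the number of calls stayed near the main one while many of the genes were others. The 4 KO- and Het-labelled libraries alone gave 1374, 809 and 697. The length slope stayed between -0.11 and -0.20 under its 7 alternatives.

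Same-numbered KO- and Het-labelled libraries did not deviate together (correlation of deviations -0.06, and -0.02 to 0.39 for other pairs of groups), so the numbers were not taken to pair the samples. The replicate block gave 1527, 947 and 832 calls, and among the named genes it added 6 calls and removed 0.

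Directions turned for few named genes. Gli1, not called, ranged from -0.30 to 0.78 when single libraries were left out, and was below 0 (-0.30 and -0.01) without replicate 1 of the KO- or of the Het-labelled pair. Dst went to 0.03, 0.10 and 0.04 and Aak1 to 0.10, 0.14 and 0.15 with length, length and expression, and length and GC removed, and in the last of these Usmg5 went to -0.05 and Lama5 to 0.07. For Dst, Aak1, Usmg5 and Lama5 the removal of the trend does this by construction. Among 116 named genes, calls were lost by 92 without Het-labelled replicate 1, 62 without KO-labelled replicate 2, 61 without KO-labelled replicate 1, 56 without Het-labelled replicate 2 and 42 with the Y-linked term. The other causes were not tested. Depth limits the low genes, since 117 tested genes were at the floor only in the KO-labelled and 87 only in the Het-labelled libraries.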

Other observations

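A smaller share of X-linked than of autosomal genes was called, but this share cannot show how much sex contributed. The spread was estimated partly from the WT- and SmoM2-labelled groups, which each mix libraries with and without Y-linked counts. Of the 5 genes of X inactivation and escape, 1 was called lower in that fit. With only the KO- and Het-labelled libraries, 4 were. Of 462 tested X-linked genes, 6.28% were called and 2.38% in both fits, against 9.57% and 4.37% of 12950 autosomal genes, and the median changes were 0.08 and 0.02. Rbm3, an X-linked RNA-binding protein gene induced by cold, was at 246 and 254 CPM in the KO-labelled, 136 and 111 in the Het-labelled and 293 to 320 in the other 4 libraries, so the Het-labelled libraries stood below all others. Its change was 1.01 (SE 0.13, edgeR adjusted p = 0.0046).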
